A study of Mus musculus with 5 samples.

Results

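The regions described here are 4099 putative enhancers of mouse epiblast stem cells that carry H3K4me1 and H3K27ac, carry no H3K27me3, and lie at a middle distance from the nearest promoter mark. They were chosen by peak overlap and distance: an H3K4me1 peak on chromosomes 1 to 19 had to share at least 1 bp with an H3K27ac peak and none with an H3K27me3 peak, and its edge had to lie more than 20 kb and at most 100 kb from the nearest edge of an H3K4me3 peak. They made up 5.37% of the 76362 autosomal H3K4me1 peaks (76772 on all chromosomes). They were 41.8% of the 9813 autosomal H3K4me1 peaks that held H3K27ac without H3K27me3 and did not overlap H3K4me3. Such peaks are called active elements below, and H3K4me1 peaks with neither H3K27 mark are called unmarked elements.

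Monomethylation of histone H3 at lysine 4 is laid down at enhancers before and while they are used, and acetylation at lysine 27 is added by CBP and p300 when an enhancer is in use. Trimethylation at lysine 4 marks the starts of transcribed or poised genes, and trimethylation at lysine 27 is placed by Polycomb complexes on silenced genes. Enhancers act over distance by looping to promoters, so an active element need not lie beside the gene it serves. In primed pluripotent cells, which resemble the epiblast after implantation, many enhancers differ from those used in naive embryonic stem cells.

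The study mapped these 4 modifications by chromatin immunoprecipitation and sequencing in EpiSC9, an epiblast stem cell line kept with FGF2 at 10 ng/ml on an irradiated layer of mouse embryonic fibroblasts. Each immunoprecipitation used 5000000 crosslinked cells and gave 1 library and 1 deposited peak list. All values come from this 1 line, with no replicate, so no comparison could be tested over samples, and each difference below is a description of these libraries. Intervals beside shares are 95% Wilson intervals, which reflect the number of peaks alone, and neighbouring peaks are not independent. The part of the signal that came from feeder cells is unknown, and neither the cell type nor the genes near the elements were checked, because positions are on mm9 and no annotation of mm9 was used here. H3K4me3 peaks stand in for promoters, so a promoter without such a peak would count as distal. The lists held 28941 H3K4me3, 33600 H3K27ac and 16975 H3K27me3 peaks. The read depth behind them is unknown.

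The active share of H3K4me1 peaks varied little with distance across the range of the members. Of 21472 autosomal H3K4me1 peaks between 20 and 100 kb from H3K4me3, 4099 were active (19.1%, 95% interval 18.6 to 19.6), 17312 were unmarked, 54 held H3K27me3 alone and 7 held both H3K27 marks. The overlap is part of the rule, so these shares are given as a description. From near to far, the share was 19.7% at 20 to 30 kb, 19% at 30 to 40 kb, 20.2% at 40 to 50 kb and 19.1% at 50 to 60 kb. It was 17.6% at 60 to 80 kb and 18.2% at 80 to 100 kb, and the intervals of these 6 steps ran from 16.3 to 21.7%. Among H3K4me1 peaks at most 20 kb from H3K4me3 but not overlapping it, 4449 of 23590 were active (18.9%, 18.4 to 19.4), or 18.5% with those within 1 kb left out. Beyond 100 kb, 1265 of 7338 were active (17.2%, 16.4 to 18.1). The middle range had the higher share than the near range on 8 of 19 autosomes and than the remote range on 14 of 19. These shares are not matched for H3K4me1 score, and within most score classes given below the remote share was the higher one.

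**Figure D1:**
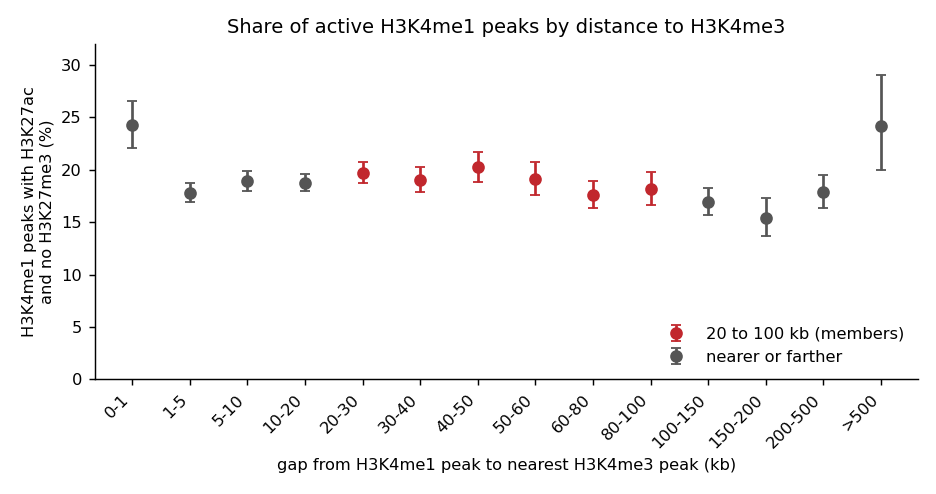
Share of autosomal H3K4me1 peaks with H3K27ac and no H3K27me3 (y axis, %) by gap to the nearest H3K4me3 peak (x axis, kb); points are shares and bars are 95% Wilson intervals, in red for the range of the members. The 6 red points lie between 17.6 and 20.2%, and the highest shares stand at the ends, at 24.3% within 1 kb and 24.2% beyond 500 kb.

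The members had wide and high-scoring H3K4me1 peaks. Their median width was 2113 bp (interquartile range 1500 to 3069) and their widths ran from 635 to 17293 bp. Unmarked elements of the same distance range had a median of 1382 bp (1088 to 1846). The median H3K4me1 score, the authors' own value per peak, was 214 in members (120 to 383) and 99.6 in unmarked elements (68.7 to 163). The members' medians of width and of score were the higher ones on 19 of 19 autosomes. Wider peaks meet more peaks of any other list, so width is not independent of the overlap that chose the members. Over all 52400 autosomal H3K4me1 peaks off H3K4me3, the medians were 1462 bp and a score of 110.

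In size the members lay close to active elements at most 20 kb from H3K4me3 and above those beyond 100 kb. The medians of members were 2113 bp and a score of 214, those of the near active elements were 2142 bp and 229, and those of the remote ones were 1744 bp and 147. Members had the wider median than near active elements on 8 of 19 autosomes and than remote ones on 19 of 19. Within the members, size changed little with distance. Spearman's rho between H3K4me1 score and gap to H3K4me3 was -0.05 over the 4099 members, whose peaks share 1 library. Spearman's rho between H3K27ac-covered length and the gap was -0.01.

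The share of active elements climbed steeply with the H3K4me1 score. At middle range, 7.02% of the H3K4me1 peaks with scores up to 78.8 were active, as were 11.8% of those from there up to 129 and 21.5% of those up to 233. The share was 35.4% from 233 to 405 and 60.7% above 405 (58.2 to 63.1). In that highest class, near H3K4me1 peaks were active in 57.2% (55 to 59.4) and remote ones in 54.5% (48.4 to 60.5), so the intervals of all 3 ranges overlapped. In each lower class the remote share was above that of the middle range, at 8.41, 15, 21.9 and 37% from low to high. From 78.8 to 129 these intervals did not overlap (remote 13.6 to 16.6, middle 11 to 12.7). The near shares were 7.5, 11.2, 19.3 and 34.3% in the same order. Between elements of like score, little difference in width was left outside the highest class: at 129 to 233, members had a median of 1878 bp and unmarked elements 1784 bp. Up to 78.8 the medians were 1049 bp for members and 1041 bp for unmarked elements, and above 405 they were 4070 bp for members and 3644 bp for unmarked elements. Width thus rose with score, and the part of width in the climb of the active share was not tested.

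**Figure D2:**
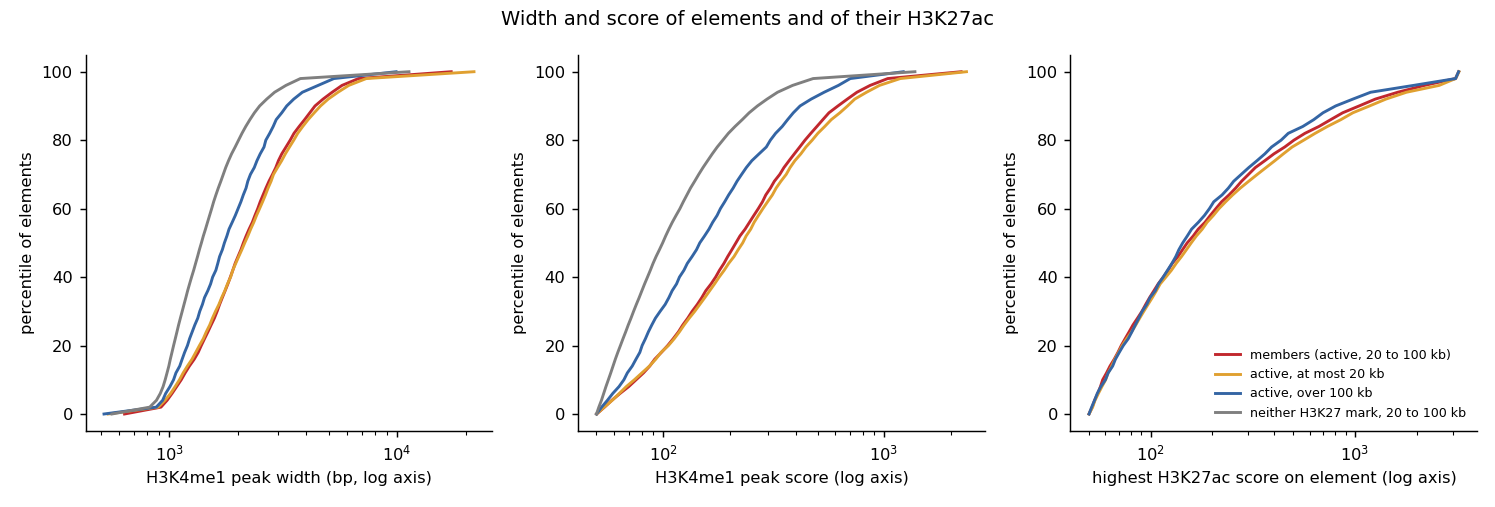
Percentile of elements (y axis) against H3K4me1 width in bp, H3K4me1 score and the highest H3K27ac score on the element (x axes, log scale), for members, near active, remote active and unmarked elements. The members' curve runs close to that of near active elements and right of the remote and unmarked ones in width and H3K4me1 score, with medians of 2113 bp and 214, and the 3 curves of the H3K27ac score nearly coincide in their lower part.

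H3K27ac on the members formed short peaks that mostly sat inside the H3K4me1 peak, much as on near active elements. A single H3K27ac peak lay on 3105 members (75.8%), a pair on 864 (21.1%) and 3 or more on 130 (3.17%), with 6 as the most. They came to 5168 different H3K27ac peaks, 15.8% of the 32808 on autosomes and 27.1% of those off H3K4me3. Of these, 3796 (73.5%) were wholly inside the member. H3K27ac covered a median of 993 bp of a member (interquartile range 594 to 1633), which was 49.7% of its length (31.1 to 74.1). Contact was rarely marginal, since 29 members (0.707%) shared under 100 bp with H3K27ac. In near active elements 74.6% of the H3K27ac peaks were wholly inside, and a median of 50.4% of the length was covered. In remote ones these values were 64.9% and 55.6%. The rule itself requires overlap, and H3K27ac peaks were narrower than the elements. Their median width was 773 bp on members of 2113 bp, and 734 bp on remote elements of 1744 bp. The share wholly inside is therefore not independent of the rule and of element width.

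H3K27ac peaks lay near the centre of the H3K4me1 peak, a placement that the overlap rule itself favours. The centre of the closest H3K27ac peak lay a median of 291 bp from the centre of the member (133 to 509). At the centre itself, 69.4% of members were under an H3K27ac peak. The share was 56.1% and 54.5% at 0.5 kb to either side and 29% and 29.3% at 1 kb. At 2 kb it was 9.66% and 9.69%. Sides follow genome coordinate without orientation, so like values on either side say nothing about symmetry within elements. Near active elements were covered at their centre in 68.4% and remote ones in 71.6%. Farther out the values differed. H3K4me3 lay within 20 kb of no member, while the median gap of near active elements to H3K4me3 was 7.37 kb (interquartile range 3.37 to 12.8). Peaks at promoters can therefore fall in the flanks of near active elements, and their part in the difference was not tested. At 4 kb upstream in coordinate, 6.07% of members, 12.1% of near active elements and 2.92% of remote ones were under an H3K27ac peak. The same order held for H3K4me1 at that point, at 18.6% of members, 28.7% of near active elements and 9.01% of remote ones. Unmarked elements, which by definition hold no H3K27ac, were under an H3K27ac peak in 2.17% and under another H3K4me1 peak in 14.3% at that point.

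**Figure D3:**
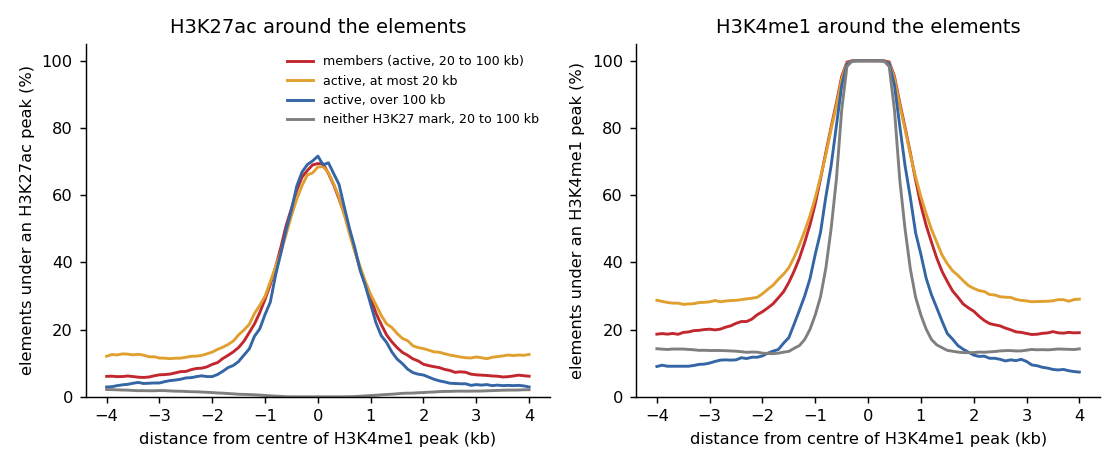
Share of elements under an H3K27ac peak (left) or an H3K4me1 peak (right) on the y axis, in %, by distance from the centre of the H3K4me1 peak on the x axis, in kb, for the 3 active groups and unmarked elements. In members H3K27ac reaches 69.4% at the centre and about 6% at 4 kb, between near and remote active elements, and the H3K4me1 curve at the centre is 100% by construction.

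Where a member held more than 1 H3K27ac peak, the gaps between them were short, but such gaps lie within the member by construction. The 1160 gaps between neighbouring H3K27ac peaks on 1 member had a median of 147 bp (58 to 311), and 988 of them (85.2%) were at most 500 bp. In near active elements 81.8% of such gaps were that short, and in remote ones 90.6%. The width of the element limits these gaps, so their size and its order between the groups are not independent of width. Members with 3 or more H3K27ac peaks were the widest, with a median of 4704 bp and an H3K4me1 score of 630. Those with 2 had 2629 bp and 297, and those with 1 had 1945 bp and 190. The number of H3K27ac peaks and the length of the element thus moved together, and the part of length was not tested.

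The acetylation on members was close in median score to that on near and remote active elements. It was below that of H3K27ac peaks on H3K4me3 and above that of H3K27ac peaks off both H3K4 marks. The H3K27ac peaks on members had a median score of 124 (73.3 to 292) and a median width of 773 bp. The medians were 129 and 790 bp on near active elements, and 126 and 734 bp on remote ones. H3K27ac peaks on H3K4me3 scored 407 with a width of 1115 bp, and those off both H3K4 marks 80.9 with 572 bp. All autosomal H3K27ac peaks together had medians of 163 and 819 bp. A score of 3100 or more, the level at which many scores stop, was reached by 85 of the 5168 H3K27ac peaks on members (1.64%), 2.31% of those on near active elements and 5.85% of those on H3K4me3. Across members, Spearman's rho between the H3K4me1 score and the highest H3K27ac score was 0.30, over elements that share both libraries.

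Ranked by their highest H3K27ac score, the members formed a continuous series. The 899 with a score under 75 had a median H3K4me1 width of 1823 bp, of which H3K27ac covered 27.1%. The 1138 at 75 to 150 had 1934 bp and 40%, the 826 at 150 to 300 had 2066 bp and 58.5%, and the 807 at 300 to 1000 had 2493 bp and 74%. At 1000 to 3100 there were 328 members with 2961 bp and 86.9%. The 101 members at 3100 or more had a median of 4098 bp and were covered in 92.6% of their length. Thus the strongest were acetylated over nearly their whole H3K4me1 peak, the weakest over a small part of it. Score and covered length are read from the same H3K27ac peaks, so the classes and the coverage are not independent. The median gap to H3K4me3 was 40.6 kb in the weakest and 36.4 kb in the strongest of these classes.

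The state of the nearest H3K4me3 peak was not used to choose the members, and it differed between members and unmarked elements. The nearest H3K4me3 peak held H3K27ac for 2390 of 4099 members (58.3%, 56.8 to 59.8), against 7864 of 17312 unmarked elements of the same distance range (45.4%, 44.7 to 46.2). That is a difference of 12.9 percentage points. Over all H3K4me1 peaks at middle range the share was 47.9%, and over all autosomal H3K4me1 peaks off H3K4me3 it was 48.5%. H3K27me3 without H3K27ac on the nearest H3K4me3 peak, a state called bivalent here, was found for 324 members (7.9%, 7.12 to 8.77) and 2447 unmarked elements (14.1%, 13.6 to 14.7). Both H3K27 marks were on the nearest H3K4me3 peak of 1.02% of members and 1.03% of unmarked elements. Neither was on that of 33.8% of members and 40.4% of unmarked elements. H3K4me1 overlapped the nearest H3K4me3 peak in 88.5% of members and 89.1% of unmarked elements.

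The members had the higher acetylated share on 19 of 19 autosomes and the lower bivalent share on 19 of 19. By chromosome the acetylated share lay between 49.7% (chromosome 17) and 68.2% (chromosome 18) for members, and between 40.5% (chromosome 4) and 50.6% (chromosome 15) for unmarked elements. The 2 ranges overlap narrowly, while on each chromosome the members stood above the unmarked elements. Many members share a nearest H3K4me3 peak: there were 2693 different ones for members and 6971 for unmarked elements. Counted once each, a setting added after the values were seen, 54.7% of those of members held H3K27ac and 45.9% of those of unmarked elements, a difference of 8.83 points.

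The difference was present in each of the 5 classes of H3K4me1 score and became smaller with distance. At H3K4me1 scores up to 78.8 the nearest H3K4me3 peak was acetylated for 58.1% of members and 46.9% of unmarked elements, and above 405 for 62.1% of members and 44.6% of unmarked elements. By distance from low to high, the share in members was 61.9% at 20 to 30 kb, 59.3% at 30 to 40 kb, 61% at 40 to 50 kb, 56.8% at 50 to 60 kb, 53.7% at 60 to 80 kb and 49.8% at 80 to 100 kb. In unmarked elements it lay between 44.4 and 46.3% in all 6 steps. The members therefore stood 16.2 points above unmarked elements in the first step and 4.98 points above in the last. For near active elements the share was 69.5% and for remote ones 48%. Members were above near active elements on 1 of 19 autosomes and above remote ones on 16.

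**Figure D4:**
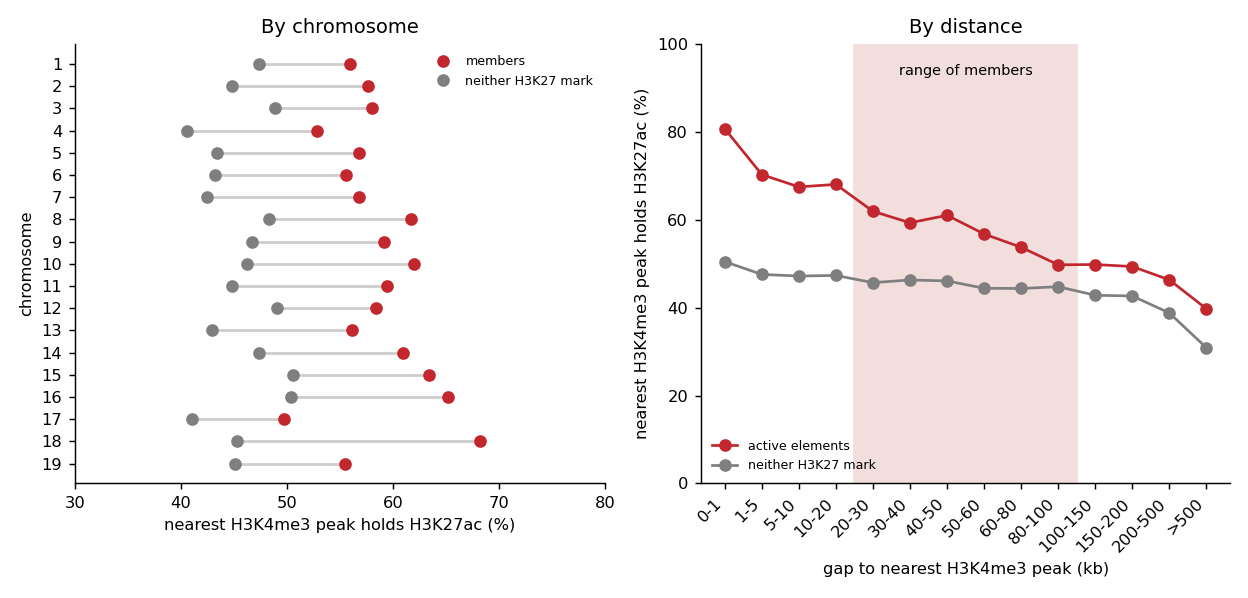
Share of elements whose nearest H3K4me3 peak holds H3K27ac (%), by chromosome for members and unmarked elements at 20 to 100 kb (left), and by gap to H3K4me3 in kb for active and unmarked elements, with the range of the members shaded (right). Members lie right of unmarked elements on each of 19 chromosomes, and the active curve falls to 49.8% at 80 to 100 kb while the unmarked curve stays near 45% within the shaded range.

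The strength of the nearest H3K4me3 peak moved with this share. Its median score was 1712 for members and 1239 for unmarked elements, and its median width was 1258 bp for members and 1143 bp for unmarked elements. Where it scored under 500, it held H3K27ac for 37.9% of 1513 members and 26.4% of 6844 unmarked elements. At 500 to 2000 the shares were 45.6% of members and 37.1% of unmarked elements, and at 2000 or more they were 78.8% of members and 67.6% of unmarked elements. The part of this strength in the difference was not tested further. The members were higher within each of these 3 classes, by 8.48 to 11.6 points. The difference was smaller where the nearest H3K4me3 peak lacked H3K4me1, at 24.5% of 470 members (20.8 to 28.6) and 20.4% of 1879 unmarked elements (18.7 to 22.3), or 4.03 points with overlapping intervals. Where that peak held H3K4me1, the shares were 62.7% of 3629 members and 48.5% of 15433 unmarked elements, a difference of 14.2 points.

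Other H3K27ac peaks around the elements also moved with it. Within 100 kb, members had a median of 4 other H3K27ac peaks off H3K4me3 (interquartile range 2 to 7) and unmarked elements 2 (1 to 5). None lay there for 10.7% of members and 21.1% of unmarked elements. Among elements with 0 such peaks, the nearest H3K4me3 peak was acetylated for 32.3% of 439 members and 27.4% of 3655 unmarked elements. With 3 to 5 it was 56.9% of members and 51.3% of unmarked elements, and with 11 or more 81.5% of 536 members and 77% of 852 unmarked elements. Over the 5 such classes members were higher by 4.53 to 8.74 points, less than the 12.9 points without this grouping. The part of regional H3K27ac density in the difference was not tested further.

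Most members had an acetylated H3K4me3 peak as a flanking peak on some side, at any distance, as did most unmarked elements. H3K4me3 lay on either side of 4093 members. Both of these flanking peaks held H3K27ac for 31.1% of them (29.7 to 32.6), 1 of them for 48% and neither for 20.9%. In unmarked elements the shares were 21.4% for both, 46.9% for 1 and 31.6% for neither. The farther of the flanking peaks lay at a median of 109 kb from members, and the stretch free of H3K4me3 that held a member measured 159 kb (108 to 256), close to the 164 kb of unmarked elements. The nearest H3K4me3 peak with H3K27ac lay at a median of 53.2 kb from members, against 67.1 kb from unmarked elements. It was within 100 kb for 78.5% of members and 69.5% of unmarked elements.

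Polycomb-marked chromatin was farther from members than from unmarked elements. The nearest H3K27me3 peak lay at a median of 164 kb (71.4 to 353) from members and 122 kb (54.4 to 280) from unmarked elements. H3K27me3 occurred within 100 kb of 35% of members (33.6 to 36.5) and 44.3% of unmarked elements (43.6 to 45.1). The nearest bivalent H3K4me3 peak was at a median of 331 kb from members and 244 kb from unmarked elements. A bivalent H3K4me3 peak lay within 100 kb of 19.4% of members, 28.4% of unmarked elements and 27.4% of near active elements. The rule excludes H3K27me3 on the member itself but not around it.

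Members were often found near each other. A joining distance midway between 0 and 25 kb was used. Over all members, the nearest other active element off H3K4me3 lay at a median gap of 17.5 kb, and over all unmarked elements at 44.5 kb. One lay within the joining distance of 1791 members (43.7%, 42.2 to 45.2) and of 4327 unmarked elements (25%, 24.4 to 25.6). The share was 44.8% for near active elements and 23.5% for remote ones. Members joined at that distance formed 3126 groups, of which 2493 held 1 member, 430 held 2 and 203 held 3 or more. In all 1606 members (39.2%, 37.7 to 40.7) were in groups of 2 or more, and 746 in groups of 3 or more. Unmarked elements, which are more numerous, were in such groups in 65% of cases, and these 2 shares come from lists of unequal size and are not compared. Another H3K4me1 peak of any kind lay within 1 kb of 31% of members and 21.6% of unmarked elements.

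Grouped members were stronger than single ones. Members in groups of 3 or more had a median highest H3K27ac score of 199, those in pairs 182 and single ones 135. Their H3K4me1 widths were 2365, 2139 and 2052 bp in the same order. The nearest H3K4me3 peak was acetylated for 73.5% of members in groups of 3 or more (70.2 to 76.5), 56.9% of those in pairs and 54.3% of single ones. In 161 of the 203 groups of 3 or more, all members had the same nearest H3K4me3 peak, and the 746 members of these groups had 241 different ones. Of those 241 peaks 70.5% held H3K27ac (64.5 to 75.9), against 57.1% of the 466 of members in pairs and 53.4% of the 2172 of single members. By stretches free of H3K4me3, 2335 held members, 1420 of them a single one, and 113 held 5 or more and together 688 members. The fullest held 12.

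The group with the most members lay on chromosome 7 at 119850659 to 119908302 of mm9. In its 57.6 kb, 8 members covered 35.8 kb, and 4 unmarked H3K4me1 peaks lay among them. The members' H3K4me1 scores ran from 56.5 to 1154, so weak and strong elements stood side by side. The 11 H3K27ac peaks there reached a score of 820 and covered 11.9 kb of the members. No H3K4me3 or H3K27me3 peak lay inside. The nearest H3K4me3 peak of each member, 2 different ones in all and from 21.8 to 54.9 kb away, held H3K27ac for all 8. These 2 H3K4me3 peaks scored low, at 54.2 and 72.8, against a median of 888 over the H3K4me3 list. An H3K4me3 peak scoring 3100 lay farther out, at -56.6 to -54.4 kb from the centre of the group.

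Of the next groups, each had 7 members. On chromosome 1 at 191575879 to 191640038, members covered 41.6 kb and 15 H3K27ac peaks reached a score of 3100. On chromosome 16 at 90417670 to 90463405 there were 16 H3K27ac peaks, also up to 3100. The groups on chromosome 10 at 107796500 to 107843964 and on chromosome 2 at 20842680 to 20867355 held 11 and 9 H3K27ac peaks and no unmarked element. The last was the most compact of these, with 7 members in 24.7 kb. In each of these 5 groups the nearest H3K4me3 peak of every member held H3K27ac, and 0 H3K4me3 and 0 H3K27me3 peaks lay inside. Those nearest peaks were few, since members of a group share them. There was 1 each for the groups on chromosomes 1, 16 and 2, and 2 each for those on chromosomes 7 and 10.

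The member with the highest H3K4me1 score, 2234, was on chromosome 4 at 106644216 to 106654793. It was 10.6 kb long and held 6 separate H3K27ac peaks over 40.6% of its length, with a highest H3K27ac score of 496. The second, on chromosome 10 at 120863355 to 120870995, scored 1911 and was acetylated over 71.6%. The third was on chromosome 14 at 27878341 to 27889617, scored 1771, and was covered by H3K27ac in 88.5%, with a peak at the stop of 3100. The fourth, on chromosome 5 at 114319435 to 114325484, had 1 H3K27ac peak over 88% of its 6.05 kb. The fifth, on chromosome 8 at 90351298 to 90362594, lay 99.8 kb from H3K4me3, just inside the limit, and was covered in 31.3%. High H3K4me1 scores thus occurred with both near-complete and partial acetylation.

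The widest member was also the one with the most acetylated bases. It spanned 17.3 kb on chromosome 4 at 45498754 to 45516046, with 12.6 kb under 4 H3K27ac peaks, and its nearest H3K4me3 peak, 24.3 kb away with a score of 98.2, held neither H3K27 mark. Next came a member of 15.9 kb spanning 41736605 to 41752510 of chromosome 19. A member of 15.4 kb, within the chromosome 1 group above, spanned 191583182 to 191598613. Chromosome 13 had one of 13.7 kb that began at 34329164 and ended at 34342824, and chromosome 15 one of 13.5 kb that began at 27919473 and ended at 27933011. Width and score did not always go together, since the members on chromosomes 19 and 13 scored 350 and 268, against 1068 and 1394 for those on chromosomes 1 and 15. By acetylated bases, the members on chromosome 13 (11.4 kb), chromosome 14 (9.98 kb, the third by score above) and chromosome 15 (9.07 kb) were again among the first 5, joined by chromosome 12 at 81309014 to 81320850 with 9.97 kb. The nearest H3K4me3 peak of the chromosome 12 member scored 51.6 and held no H3K27ac.

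Members were spread over all autosomes, from 110 on chromosome 19 to 340 on chromosome 2. Per Mb up to the last peak of any list, the density had a median of 1.64 and ran from 1.17 on chromosome 14 to 2.08 on chromosome 10. The active share of H3K4me1 peaks at middle range was highest on chromosome 10 (24.5%, 22.1 to 27.2) and chromosome 3 (23.1%, 20.6 to 25.8), and lowest on chromosome 4 (16.2%, 14.4 to 18.2) and chromosome 5 (16.4%, 14.6 to 18.4). The intervals of the first pair do not overlap those of the second. These chromosomes were picked as the extremes among the autosomes, so this is not read as a difference between chromosomes. Median H3K4me1 widths of members were alike across chromosomes, at 1955 to 2344 bp, and lay above the 1322 to 1451 bp of unmarked elements without overlap.

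The distance limits cut through a continuous distribution. The members nearest to the lower limit lay 20.014 kb (chromosome 15, H3K4me1 score 596) and 20.015 kb (chromosome 12, score 123) from H3K4me3, and the nearest active elements outside it lay 19.999 kb (chromosome 9, score 265) and 19.985 kb (chromosome 12, score 192) away. At the upper limit, members lay at 99.98 kb (chromosome 5, score 185) and 99.8 kb (chromosome 8, the fifth by score above). The next active elements beyond it lay at 100.036 kb (chromosome 1, score 162) and 100.1 kb (chromosome 12, score 326). The median gap of members was 40.6 kb (28.4 to 59.3), and that of unmarked elements in the same range was 41.4 kb.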

How the data were processed

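Peak intervals of 4 histone marks on mm9, each with a score per peak, were deposited by the authors as 1 list per library. The submitters' processing notes name Bowtie 0.12.9, MACS 1.4 and Cufflinks, with no role or order. For the control, duplicates and the threshold of peak calling, the sources used here give nothing. Scores start at 50 and many stop near 3100, and they were compared within a list only. An input library was not analysed here.

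Members were found by the overlap and distance rule given above, with gaps measured edge to edge on half-open intervals and printed positions 1-based. Members of the other ranges were formed by the same rule with other distance limits. The state of an H3K4me3 peak came from overlap with at least 1 bp of H3K27ac or H3K27me3. Score classes were set on all autosomal H3K4me1 peaks. Chromosome densities use the last peak end over all 4 lists.

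Members and lists were chosen with earlier results of these data known. Named regions are the 5 members with the highest H3K4me1 score, the 5 widest, the 5 with the largest acetylated length, the 5 groups with the most members and those nearest to each limit. Without an mm9 genome or annotation, gene names, gene lists, marker checks, sequences and motifs are not reported. Python 3.11.15, numpy 2.4.6, scipy 1.17.1, pandas 2.3.3 and matplotlib 3.10.9 were used, and the interval functions were tested on simulated data.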

Additional observations from a re-analysis of the deposited data

Results flagged for a closer look

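On chromosome X, which the rule leaves out, 13 of 74 H3K4me1 peaks at middle range met the remaining conditions (17.6%, 10.6 to 27.8), an interval that holds the autosomal share of 19.1%. They are given because they lie outside the comparisons made above.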

How the results depend on the processing

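Each mark had 1 library, so none was left out in turn, and read depth is unknown. Of 69 values under other settings, 40 stayed within 1.5 times the count or within the 95% interval of the value reported. Members stood above unmarked elements in the acetylated share of the nearest H3K4me3 peak under all 12 settings run for it, by 8.83 to 15.1 percentage points. The cause of a shift was not tested under any setting, including those that remove peaks.

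The number of members, 4099, was 1955 with H3K27ac restricted to its upper scores (from the median up), and 2647 or 1452 with limits of 20 to 50 kb or 50 to 100 kb. The active share (19.1%) was 32.1% with H3K4me1 restricted likewise, 20.01% with H3K4me3 and 9.1% with H3K27ac restricted, 18.2% at 50 to 100 kb and 19.8% with H3K4me1 merged within 1 kb. In the same order of settings the median H3K4me1 width (2113 bp) was 2567, 2225, 2479, 2064 and 2477 bp. The median H3K27ac score (124) was 136, 132 and 370 under the 3 score limits for H3K4me1, H3K4me3 and H3K27ac.

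The acetylated share of the nearest H3K4me3 peak (58.3%) was 75.1% with H3K4me3 restricted to its upper scores, 46.5% with H3K27ac so limited, 61.1% at 10 to 100 kb, 60.9% at 20 to 50 kb, 53.6% at 50 to 100 kb and 54.7% with each H3K4me3 peak counted once. The share of members in groups (39.2%) was 34.4%, 44.6% and 31% under the score limits for H3K4me1, H3K4me3 and H3K27ac, 33.5% at 50 to 100 kb, 29.9% with merging, and 28.6% or 49.9% when joined within 5 or 25 kb. Counting each H3K4me3 peak once, and not counting contacts under 100 bp, were added after the data were seen. No paired analysis was possible because each mark had 1 sample.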
